A study of Arabidopsis thaliana with 4 samples.

Results

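PIF1, PIF3, PIF4, PIF5, HY5, HYH, PIL1, ATHB2 and HFR1 are 9 Arabidopsis thaliana genes for transcription factors of the light and shade response. They were listed by name for their known roles, with earlier results of these data known, and all 9 were found by identifier among the 33341 genes counted. All 9 were also among the 20937 genes with enough reads for comparison, which required about 10 reads in at least 1 library. Transcripts were measured in whole seedlings aged 12 days, grown on MS plates with 1% sucrose at 22 °C under days of 16 h light and 8 h dark. The genotypes were the mutant atprmt3 (1 library, titled atprmt3-2), named for PRMT3, a protein arginine methyltransferase, the mutant rps2a2b (1 library, titled rps2a2b-1), named for a pair of genes of the ribosomal protein RPS2, and the wild type Col (2 libraries). No far-red or shade treatment is given in the labels, and neither the time of day of harvest nor the meaning of the final digits in the titles is stated.

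The depth was 18650053 reads on genes in atprmt3, 15194770 in rps2a2b, and 15646735 and 15637192 in Col. The pair of Col libraries agreed within counting noise, with a chi-square per gene of 0.989 over 20569 genes, so they were counted as 1 sample and each genotype as n = 1. A difference below is therefore a difference between libraries, with no replicate check and no p-value, and a gene is called higher or lower when the libraries differed at least 2-fold. Values after ± are standard errors of read sampling, widened for the excess spread seen between the mutant libraries. Real differences between the mutants enlarge this widening, and it gives no measure of variation between plants of the same genotype. Below, sampling error means this widened error, which is larger than counting error alone. PRMT3 had 132 reads in atprmt3, against 315 in rps2a2b and 237 and 254 in Col, and RPS2A had 167 reads in rps2a2b, against 580 in atprmt3 and 334 and 318 in Col. RPS2B was counted at 0 in all 4 libraries, which checks nothing about its label. Leaf and root marker genes were both present in every library, as whole seedlings contain them.

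Plants read the light around them with phytochromes, receptors that switch between an inactive and an active form under far-red-rich and red-rich light. Active phytochrome marks the PHYTOCHROME INTERACTING FACTORS (PIFs), basic helix-loop-helix proteins that promote elongation, for destruction. HY5 and its relative HYH are bZIP factors that promote the opposite program, growth in light, and the COP1/SPA ubiquitin ligase removes HY5 in the dark. In vegetation shade, PIFs accumulate and switch on ATHB2, PIL1, HFR1 and auxin synthesis genes, and HFR1 in turn binds PIF4 and PIF5 and holds them back.

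PIFs bind the G-box, CACGTG, and the PBE-box, CACATG. HD-Zip proteins, the family of ATHB2, bind sites of the general form CAATNATTG, where N is any base. These letters were searched on both strands in the 2000 bases before the annotated start of each gene, in the TAIR10.1 reference. The G-box and the HD-Zip letters read the same on both strands, and the 3 motifs do not overlap in their definition. A G-box was found before 3 of the 9 genes, PIF5, PIL1 and HFR1, while 23.8% of 27440 genes hold one in a window of that length. PIF3, PIF4, HY5, HYH and HFR1 held a PBE-box, as do 61.0% of all genes, and ATHB2 alone held the HD-Zip letters, present before 6.35% of all genes. PIF1 held none of the 3. The HD-Zip search took any middle base, so it did not tell apart the sites of different HD-Zip classes. The match before ATHB2 has A as its middle base, and it is not read here as a site for the class of ATHB2. A match is a stretch of letters and not a binding site shown by these data, and no match says only that these letters are not in the window. The windows shown are the G-box matches and the HD-Zip match of ATHB2, since HFR1, PIF5 and ATHB2 carry the contrasts described next and PIL1 holds the most G-boxes. Capitals mark the motif, and each is given 5′ to 3′ on the strand of its gene.
PIF5, chr3:21830985-21831014, minus strand, motif from base -165: ttaactagtcaaCACGTGaaataaatgcga
HFR1, chr1:469282-469311, minus strand, motif from base -1419: tcacgagggcatCACGTGaacacgcctttt
HFR1, chr1:468863-468892, minus strand, motif from base -1000: gagcccacaaccCACGTGggattttggata
PIL1, chr2:19299063-19299092, minus strand, motif from base -1222: tcacgcggcattCACGTGaagtgcacgtga
PIL1, chr2:19299052-19299081, minus strand, motif from base -1211: tcacgtgaagtgCACGTGaacttggccaaa
PIL1, chr2:19298934-19298963, minus strand, motif from base -1093: gttctttccgctCACGTGggccttttgtgc
ATHB2, chr4:9448625-9448657, plus strand, motif from base -477: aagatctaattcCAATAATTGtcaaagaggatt
The first 2 windows of PIL1 overlap, and its G-boxes lie farther from the start than the single G-box of PIF5. Of genes with a 300-base window, 7.09% hold a G-box that near, so PIF5 is the only one of the 9 with a G-box in it.

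**Figure D1:**
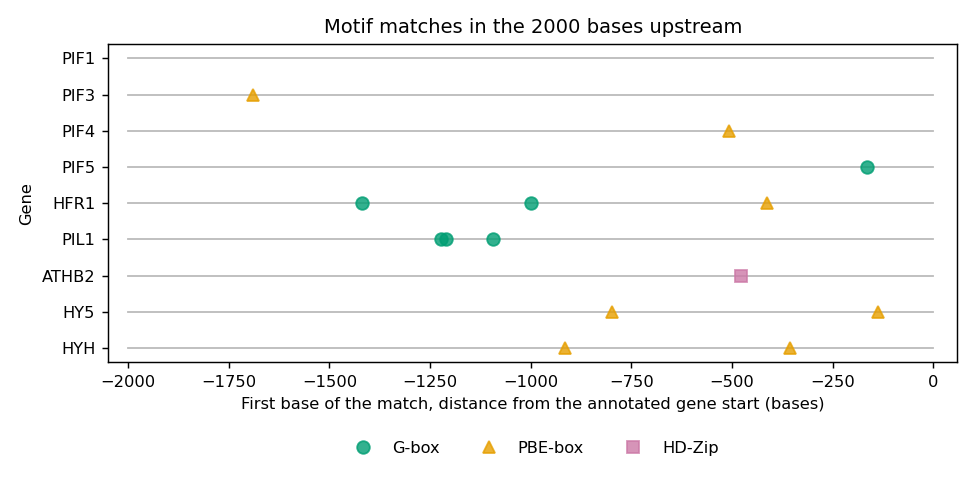
Positions of the motif matches before each of the 9 genes, in bases from the annotated start (x axis), one row per gene. The G-boxes of PIL1 lie at bases -1222, -1211 and -1093, those of HFR1 at -1419 and -1000, and that of PIF5 at -165.

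Among the 4 PIF genes studied, transcripts of PIF4 and PIF5 lay below Col in both mutants, though short of 2-fold in rps2a2b. Those of PIF1 and PIF3 lay near the Col level. PIF4, which drives elongation in warmth, at night and in shade, is AT2G43010 at chr2:17886101-17889087 on the plus strand. Its reads numbered 2411 in atprmt3 and 2140 in rps2a2b, against 3916 and 3914 in Col, so both mutant libraries lay below both Col libraries. As normalised read counts (CPM, counts scaled to library size with TMM factors that set the bulk of genes level), this was 128 CPM in atprmt3 and 133 CPM in rps2a2b, against 259 CPM in Col. The log2 fold change was -1.02 ± 0.09 in atprmt3 and -0.96 ± 0.10 in rps2a2b, on either side of the 2-fold line. With upper-quartile factors the atprmt3 value was -0.99, and with a trend on gene length and GC content removed it was -0.92, so this call depends on the scaling.

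PIF5, a close relative with overlapping roles in shade and in leaf ageing, is AT3G59060 at chr3:21827905-21830837 on the minus strand. It had 1211 reads in atprmt3 and 1374 in rps2a2b, against 2150 and 2218 in Col. Both mutants again lay below Col, with atprmt3 the lower of them. The levels were 64.2 CPM in atprmt3 and 85.5 CPM in rps2a2b, against 145 CPM in Col, for log2 fold changes of -1.17 ± 0.13 and -0.76 ± 0.12. Between the mutants, rps2a2b over atprmt3 was 0.41 ± 0.14, below the 2-fold line.

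PIF1, which holds back seed germination and chlorophyll synthesis in the dark, is AT2G20180 at chr2:8704024-8707009 on the minus strand. PIF1 reads were 781 in atprmt3 and 782 in rps2a2b, against 699 and 705 in Col, and after scaling its log2 fold changes were -0.17 ± 0.18 and 0.07 ± 0.18. Its transcript overlaps AT2G20170 on the opposite strand by 334 bases and 93.0% of its 50-base stretches are unique in the genome, whereas all 50-base stretches of the other 8 genes are unique. The libraries mark strand, but the strand setting of the counting was not given in the sources used here, so reads of that overlap may not be separated. PIF3, the founding PIF and a repressor of greening in the dark, is AT1G09530 at chr1:3075768-3079654 on the plus strand. It had 622 reads in atprmt3 and 606 in rps2a2b, against 507 and 485 in Col, with log2 fold changes of 0.01 ± 0.21 and 0.20 ± 0.21. Neither gene differed from Col by more than its sampling error in either mutant, and rps2a2b over atprmt3 was 0.23 ± 0.18 for PIF1 and 0.19 ± 0.20 for PIF3.

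Because PIF4 and PIF5 make up most of the PIF transcripts counted, the make-up of the 4-gene pool differed between mutants and Col. The pool, summed as CPM per kilobase of exon, was 104 in atprmt3 and 119 in rps2a2b, against 187 and 189 in the Col libraries. PIF4 supplied 47.4% of it in atprmt3 and 43.1% in rps2a2b, against 53.3% and 52.9% in Col. PIF1 and PIF3 held larger shares of the smaller pools in the mutants. PIF1 supplied 17.0% in atprmt3 and 17.4% in rps2a2b, against 10.5% and 10.6% in Col, and PIF3 supplied 11.5% in both mutants, against 6.49% and 6.16% in Col. PIF5 supplied 24.1% in atprmt3 and 28.0% in rps2a2b, against 29.7% and 30.4% in Col.

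**Figure D2:**
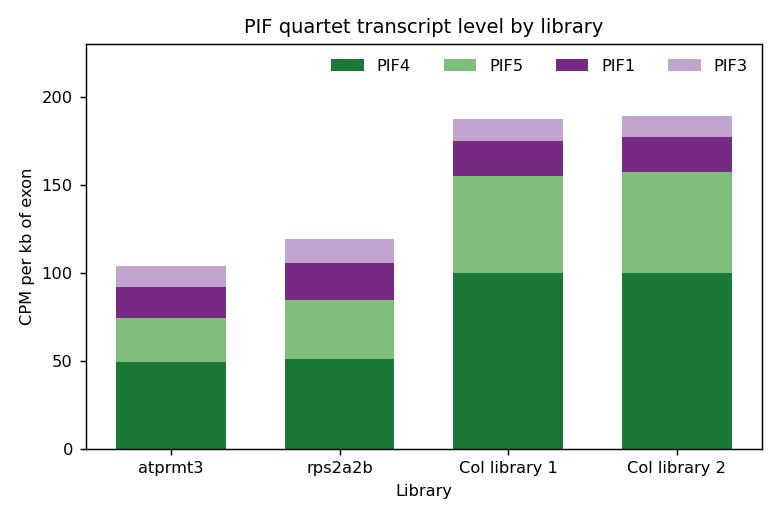
Make-up of the PIF pool in each library, from left to right atprmt3, rps2a2b and the Col libraries, as CPM per kilobase (y axis) for PIF1, PIF3, PIF4 and PIF5. The pool was 104 in atprmt3 and 119 in rps2a2b, against 187 and 189 in Col, and the smaller pool in the mutants lies in PIF4 and PIF5.

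The ratio of reads of 2 genes within one library does not depend on scaling between libraries, and it gave the same order. The PIF4 to PIF1 read ratio was 3.09 in atprmt3 and 2.74 in rps2a2b, against 5.60 and 5.55 in Col, and exact binomial 95% intervals of the mutants ran from 2.85 to 3.35 and from 2.52 to 2.97, against 5.17 to 6.08 and 5.12 to 6.02 in Col. Intervals of this kind cover counting error only. The PIF5 to PIF4 ratio differed between the mutants and not in a common direction from Col, at 0.502 in atprmt3 and 0.642 in rps2a2b, against 0.549 and 0.567 in Col.

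HFR1, the atypical helix-loop-helix protein that blocks DNA binding by PIF4 and PIF5, had the lowest transcript level relative to Col of the 9 genes. It is AT1G02340 at chr1:465616-467880 on the minus strand, and both its G-boxes stand above. It had 169 reads in atprmt3 and 127 in rps2a2b, against 633 and 570 in Col, which is 8.96 and 7.90 CPM, against 39.8 CPM in Col. Both mutant libraries lay far below both Col libraries, and the mutants lay close together. The log2 fold change was -2.15 ± 0.31 in atprmt3 and -2.33 ± 0.35 in rps2a2b. Across the settings tried it ranged from -2.22 to -2.08 in atprmt3 and from -2.40 to -2.26 in rps2a2b. Ordered from the lowest log2 fold change among all 20937 genes, HFR1 stood at position 379 in atprmt3 and 345 in rps2a2b. A mean level of 10 CPM or more was reached by 12325 genes. HFR1 reached it only through its Col level, so a low position among these genes is partly built in. Among them HFR1 stood at position 8 in atprmt3 and at position 3 in rps2a2b. In the same set PIF5 stood at position 107 in atprmt3 and 532 in rps2a2b, and PIF4 at 173 and 252.

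HFR1 was also low relative to PIF4 within each mutant library. Its read ratio to PIF4 was 0.0701 in atprmt3 (interval 0.0596 to 0.0820) and 0.0594 in rps2a2b (0.0492 to 0.0710), against 0.162 and 0.146 in Col (0.148 to 0.176 and 0.133 to 0.159). Its ratio to PIF1 was 0.216 in atprmt3 and 0.162 in rps2a2b, against 0.906 and 0.809 in Col. Both ratios were lower in each mutant library than in either Col library.

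PIL1 is a helix-loop-helix gene whose transcript appears within minutes of shade and is a standard shade marker. It is AT2G46970 at chr2:19295431-19297858 on the minus strand. It was scarcely expressed, with 41 reads in atprmt3 and 44 in rps2a2b, against 21 and 25 in Col. Its levels of 2.17 and 2.74 CPM, against 1.52 CPM in Col, gave log2 fold changes of 0.51 ± 0.91 and 0.84 ± 0.89, smaller than their widened errors. Unlike that of HFR1, its level did not lie below Col in either mutant, but its reads were few. Whether G-boxes bear on these levels was not tested.

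ATHB2, an HD-Zip class II factor that represses other genes and promotes elongation in shade, lay nearer to Col in atprmt3 than in rps2a2b. It is AT4G16780 at chr4:9449114-9450905 on the plus strand. It had 325 reads in atprmt3 and 164 in rps2a2b, against 308 and 243 in Col, so that only rps2a2b lay below Col. The log2 fold change was -0.08 ± 0.29 in atprmt3 and -0.84 ± 0.35 in rps2a2b, and rps2a2b over atprmt3 was -0.76 ± 0.34, all short of 2-fold.

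HY5, the bZIP factor that stands against the PIFs on many shared promoters, is AT5G11260 at chr5:3593335-3595073 on the minus strand. It had 242 reads in atprmt3 and 226 in rps2a2b, against 202 and 231 in Col. The log2 fold changes of -0.16 ± 0.33 and -0.03 ± 0.33 lay within sampling error. HYH, its closest homolog, is AT3G17609 at chr3:6023844-6024710 on the plus strand. It had 46 reads in atprmt3 and 16 in rps2a2b, against 46 and 31 in Col, so only rps2a2b lay below Col. The log2 fold change was -0.06 ± 0.76 in atprmt3 and -1.35 ± 1.05 in rps2a2b. The rps2a2b value passes the 2-fold line but is little larger than its widened error, and without Col replicate 1 it was -1.04.

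**Figure D3:**
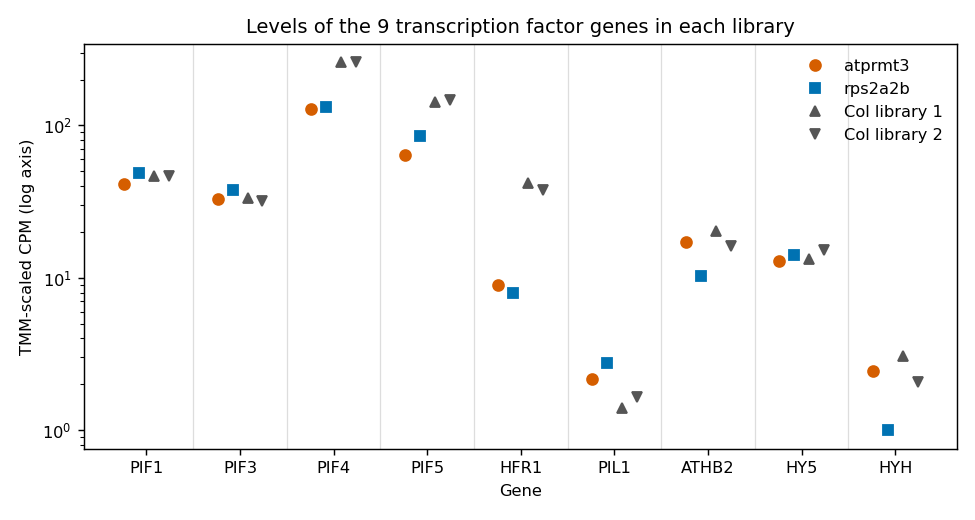
Normalised levels of the 9 genes in each library, with 1 point per library, in TMM-scaled CPM on a log y axis, in the order atprmt3, rps2a2b, Col library 1 and Col library 2 from left to right. PIF4, PIF5 and HFR1 lie below Col in both mutants (for HFR1 8.96 and 7.90 CPM, against 39.8 CPM). In rps2a2b PIF4 and PIF5 stay short of 2-fold, and PIF1, PIF3 and HY5 lie near Col in both.

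In count, 3 of the 9 genes were at least 2-fold lower in atprmt3 (PIF4, PIF5 and HFR1) and 0 at least 2-fold higher, where 6.33% of the 20937 genes were lower and 8.97% higher. In rps2a2b, 2 of the 9 were lower (HYH and HFR1) and 0 higher, where 6.29% of genes were lower and 9.99% higher. Genes with few reads pass such a fold more easily. Among the 12325 better counted genes, of mean 10 CPM or more, 1.49% were lower and 2.13% higher in atprmt3, and 1.83% lower and 2.62% higher in rps2a2b. Among the 7 members at that level, 3 were lower in atprmt3 and 1 in rps2a2b, with PIF4 at -0.96 short of the line. HFR1 was among these 7 only through its Col level. Both comparisons use the same Col libraries, so a low value in both does not count as a repeat. Over the 9 genes the median log2 fold change was -0.16 in atprmt3 and -0.76 in rps2a2b, against 0.01 in either comparison over all genes tested.

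The mutants can also be set against each other, a comparison that does not use Col. HYH alone of the 9 was at least 2-fold lower in rps2a2b than in atprmt3, at -1.29 ± 1.04, and 0 were higher, where 4.7% of genes were lower and 5.93% higher. Among the better counted genes these shares were 0.349% and 0.633%. HFR1 at -0.18 ± 0.42 and PIF4 at 0.06 ± 0.11 differed between the mutants by less than their widened sampling errors. The widening was taken from the spread between these same mutant libraries, so this cannot show that the mutants are alike. PIF5 and ATHB2 exceeded their sampling errors by the widest margin, with PIF5 higher and ATHB2 lower in rps2a2b, both short of 2-fold.

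Other call rules gave other counts. At 1.5-fold, 3 of the 9 genes were called in atprmt3 over Col (31.1% of all genes), 6 in rps2a2b over Col (32.2%) and 2 in rps2a2b over atprmt3 (21.3%). Tests were also run, whose spread comes from the Col libraries or is assumed, so that they compare libraries and not genotypes. At an adjusted p of 0.05, edgeR's quasi-likelihood test called 4 (53.7% of all genes), 7 (52.5%) and 2 (25.4%) in the same order of comparisons, and DESeq2 called 3 (16.7%), 4 (17.2%) and 0 (3.12%). A likelihood ratio test with an assumed biological coefficient of variation (BCV) of 0.2 called 2 (10.3%), 1 (11.6%) and 0 (3.09%). At an unadjusted p of 0.05 the counts of 0 were 2 by DESeq2 and 1 with the assumed BCV. HFR1 was called against Col in both mutants by every one of these rules.

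**Figure D4:**
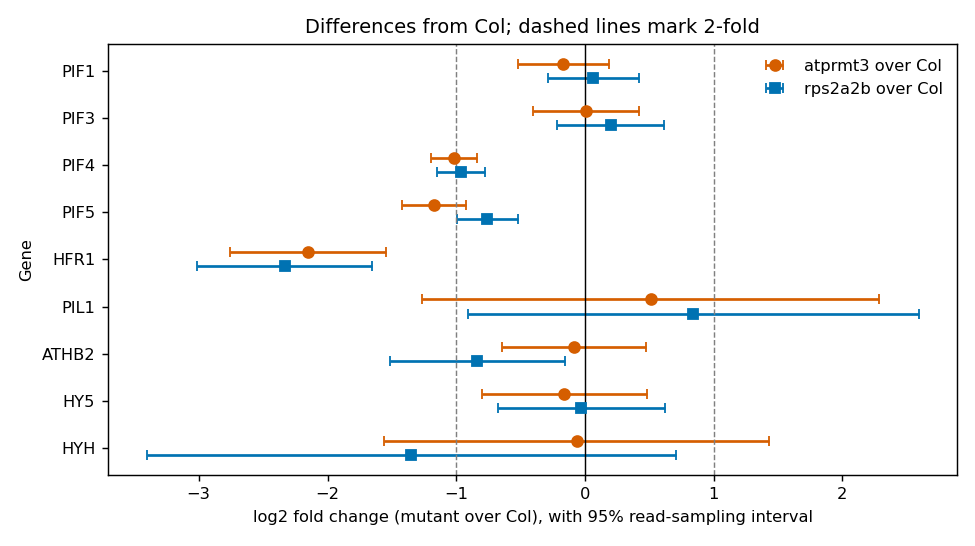
Log2 fold changes (x axis) of the 9 genes for atprmt3 over Col and rps2a2b over Col, with bars giving 95% intervals from the widened read-sampling errors and dashed lines at 2-fold. HFR1 lies at -2.15 and -2.33 with bars clear of 0, while the bars of HYH and PIL1 span 0.

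Levels of different genes were compared per kilobase of exon. In Col the order ran PIF4 at 99.8 CPM per kilobase, PIF5 at 56.5, HFR1 at 26.2, PIF1 at 19.8, ATHB2 at 13.7, PIF3 at 11.9, HY5 at 11.4, HYH at 3.29 and PIL1 at 0.883. The counting intervals of ATHB2 and PIF3 overlapped, as did those of PIF3 and HY5, so their order is not resolved. HFR1 held position 7 in both mutants, against position 3 in Col, at 5.88 CPM per kilobase in atprmt3 and 5.19 in rps2a2b, below PIF1, PIF3, ATHB2 and HY5. PIF4 also led in the mutants, at 49.2 in atprmt3 and 51.3 in rps2a2b, followed by PIF5 and PIF1. In rps2a2b ATHB2 at 7.65 stood below PIF3 at 13.6 and HY5 at 11.2, while PIL1 at 1.59 and HYH at 1.28 could not be ordered.

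Genes whose pair of log2 fold changes lay nearest to a member were sought among the better counted genes, over 3 genotypes, by Euclidean distance on the log2 scale. The genes nearest to HFR1 were FRO6 (distance 0.28, at 35.9 CPM in atprmt3 and 35.6 in rps2a2b, against 149.7 in Col), AT2G39850 (0.29) and AT5G44260 (0.33). Those nearest to PIF4 were AT3G22142, HSPRO2 and AMP1, each at a distance of 0.05, and those nearest to PIF5 were HOL2, AT2G15292 and PSY1R, within 0.09. The genes nearest to HYH were AT4G34630, RER1B and AT2G16250, within 0.19. With 3 genotypes many genes fall close to any pattern, and HFR1, at the edge of the distribution, had the most distant neighbours.

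Shade-induced targets of PIFs were the list with the lowest medians. Of the 15 genes listed, 14 were tested. In atprmt3, 8 were at least 2-fold lower and 0 higher, with a median log2 fold change of -1.13, where 6.33% of all genes were lower. In rps2a2b 7 were lower and 0 higher, with a median of -1.18, where 6.29% of all genes were lower. Apart from EXPA8, the genes called here had between 3 and 68 reads in a library, a range in which a 2-fold difference is easily passed. The best counted of these was EXPA8, a cell wall expansin, with 1869 reads in atprmt3 and 1064 in rps2a2b, against 3216 and 3313 in Col, at -1.13 ± 0.10 and -1.71 ± 0.12. Apart from EXPA8, the genes named from this list were picked after their values were seen. The better counted LNG1 and LNG2, which regulate cell elongation, stayed short of 2-fold, at -0.54 ± 0.16 and -0.74 ± 0.14 in atprmt3 and at -0.66 ± 0.17 and -0.92 ± 0.15 in rps2a2b. Those lower in both mutants included the auxin response gene IAA19, the cytokinin oxidase CKX5, the ethylene synthesis gene ACS8 and PKS4. IAA19 had 35 reads in atprmt3 and 17 in rps2a2b, against 67 and 61 in Col, and CKX5 had 31 and 26, against 64 and 68 in Col. IAA29, a standard shade marker, had 12 reads in atprmt3 and 3 in rps2a2b, against 50 and 52 in Col. Of the auxin synthesis genes, YUC8 had 21 reads in atprmt3 and 29 in rps2a2b, against 51 and 46 in Col, and YUC9 had 28 and 46, against 51 and 47 in Col. YUC5 had 22 reads in atprmt3 and 5 in rps2a2b, against 27 and 28 in Col. The values of these 3 genes lay below Col in both mutants, and their log2 differences between the mutants (0.69 ± 1.02, 0.94 ± 0.86 and -1.88 ± 1.77) were about as large as their errors. Against Col, YUC9 in rps2a2b at -0.18 ± 0.72 and YUC5 in atprmt3 at -0.64 ± 1.00 differed by less than their errors. YUC2, also listed, had 42 reads in atprmt3 and 52 in rps2a2b, against 43 and 38 in Col, at -0.27 ± 0.77 and 0.27 ± 0.73. The xyloglucan enzyme gene XTH15, also induced by shade, was not lower, at 0.14 ± 0.39 and 0.22 ± 0.40.

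HY5 targets lay above 0 for 9 genes and below for 4 in atprmt3, and above 0 for 3 and below for 10 in rps2a2b. In each mutant 2 of the 13 tested passed 2-fold upward and 1 downward, with medians of 0.07 in atprmt3 and -0.34 in rps2a2b. Over all genes tested, 8.97% were higher and 6.33% lower in atprmt3, and 9.99% higher and 6.29% lower in rps2a2b. The higher ones were the flavonoid synthesis genes CHI, with 492 reads in atprmt3 and 321 in rps2a2b against 151 and 144 in Col (1.42 ± 0.32 and 1.03 ± 0.34), and FLS1, with 495 and 436 against 197 in each Col library (1.01 ± 0.29 and 1.06 ± 0.30). With the length and GC trend removed, CHI in rps2a2b was 0.91 and FLS1 in atprmt3 was 0.97, which leaves 1 higher gene in each mutant. The CHI value in rps2a2b was 1.00 without Col replicate 2, just under the 2-fold line.

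Upstream of the 9 genes, 0 of 10 photoreceptor genes passed 2-fold in either mutant, with medians of -0.16 in atprmt3 and -0.26 in rps2a2b. In atprmt3 9 lay below Col and 1 above, and in rps2a2b 8 lay below and 2 above. PHOT1, named after its values were seen, lay at -0.65 ± 0.06 in atprmt3 and -0.78 ± 0.06 in rps2a2b. With the length and GC trend removed the atprmt3 median was 0.10. PHYB, the main shade-sensing phytochrome, lay at -0.13 ± 0.13 and 0.09 ± 0.13, but with that trend removed the atprmt3 value turned to 0.26. The list of 11 COP1/SPA and DET1 repressor genes also takes in RUP1 and RUP2. Of the 11, 0 passed 2-fold in atprmt3, and no COP1, SPA or DET1 gene passed in rps2a2b. The 1 higher in rps2a2b was RUP1 (named after its value was seen), with 48 reads against 10 and 23 in Col. That call is lost without Col replicate 1. COP1, the ligase that removes HY5 and HFR1 proteins in the dark, lay at -0.03 ± 0.20 and -0.42 ± 0.22. FHY1, which carries phytochrome A into the nucleus, was the 1 of 4 genes for its import and transcription that was lower in atprmt3, at -1.07 ± 0.53 (-0.98 without Col replicate 1), and 0 passed in rps2a2b. The shares of all genes past 2-fold were 6.33% lower and 8.97% higher in atprmt3, and 6.29% lower and 9.99% higher in rps2a2b.

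Partners and relatives of the PIFs lay on both sides of Col. For the counts below, 6.33% of all genes were lower and 8.97% higher in atprmt3, and 6.29% lower and 9.99% higher in rps2a2b. Among 3 further PIF family genes, PIF8 was lower in both mutants, with 242 reads in atprmt3 and 254 in rps2a2b against 451 and 508 in Col (-1.31 ± 0.28 and -1.01 ± 0.27), although in rps2a2b it was -0.99 with upper-quartile factors and -0.92 without Col replicate 2. PIF7, the main shade PIF, lay at -0.55 ± 0.33 and -0.75 ± 0.36. Of 9 helix-loop-helix cofactor genes tested of 10 listed, PAR1, another inhibitor of PIFs induced by shade, was the 1 lower in each mutant (-1.21 ± 0.55 and -1.46 ± 0.61). Named after their values were seen, BEE1 (84 reads in atprmt3 and 68 in rps2a2b, against 12 and 19 in Col) and HEC1 were higher in both and HEC2 in rps2a2b, though HEC1 and HEC2 had 0 reads in Col. Of 7 DELLA and brassinosteroid partner genes, RGL1, a DELLA that restrains PIFs, was the only one past 2-fold, at 1.01 ± 0.38 in atprmt3, and 0 passed in rps2a2b. Without Col replicate 2 the RGL1 value was 0.97.

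Relatives of ATHB2 and the B-box factors gave small counts on both sides. Among 7 HD-Zip II genes, 1 was higher and 1 lower in atprmt3, and 2 were lower in rps2a2b. The higher one, ATHB4 (named after its value was seen), had 52 reads, against 21 and 19 in Col, at 1.05 ± 0.91, and the call is lost without Col replicate 2 and with the length and GC trend removed. HAT9 was lower in both, at -1.48 ± 0.65 and -1.72 ± 0.73, and HAT14 in rps2a2b at -1.01 ± 0.59, which was -0.98 without Col replicate 1, -0.99 with upper-quartile factors and -0.94 with the trend removed. Of 10 B-box genes tested of 11 listed, 3 were higher and 1 lower in atprmt3, where 8.97% and 6.33% of all genes were, and 2 were higher and 2 lower in rps2a2b, where 9.99% and 6.29% were. The higher ones, named after their values were seen, had few reads. BBX20 had 49 in each mutant, against 13 and 4 in Col, BBX32 had 14 in atprmt3 and 5 in rps2a2b, against 1 and 0, and BBX31, higher in atprmt3 and lower in rps2a2b, had 14 and 1, against 5 and 4. The differences of BBX31 and BBX32 were smaller than their errors. BBX28 lay at -1.45 ± 0.36 in atprmt3 and -0.84 ± 0.32 in rps2a2b, and BBX25 at -0.92 ± 0.33 and -1.03 ± 0.35. Without Col replicate 2 the BBX25 value in rps2a2b was -0.95.

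**Figure D5:**
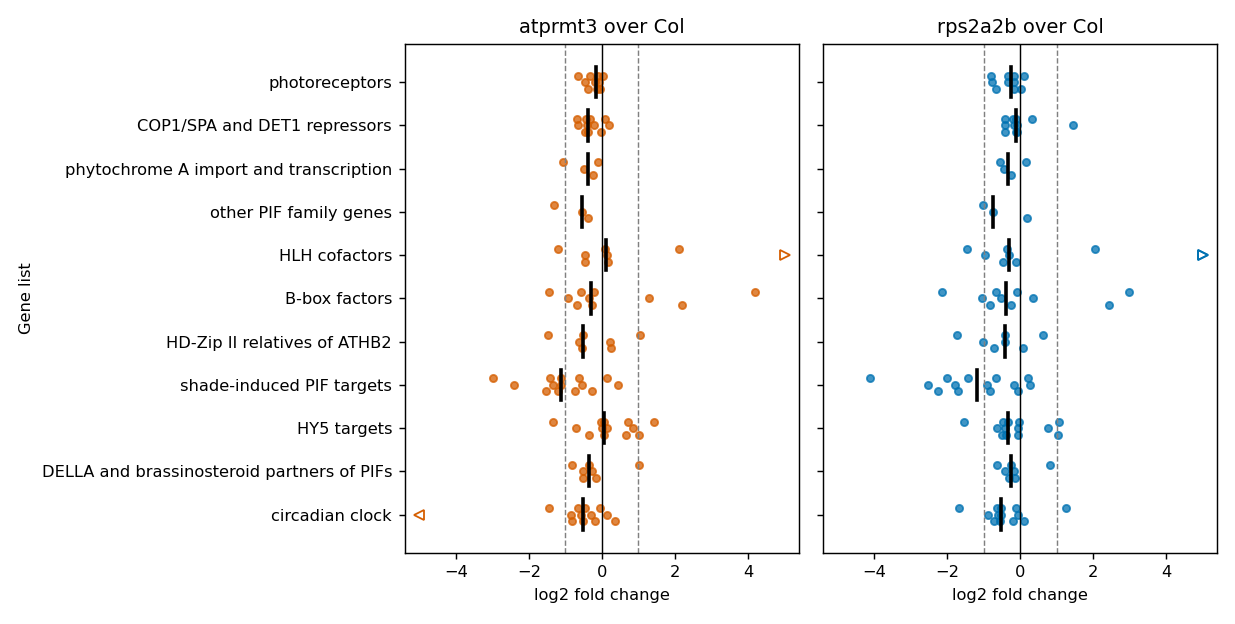
Log2 fold changes of the genes tested in 11 pathway lists, atprmt3 over Col at left and rps2a2b over Col at right. Points are genes, black bars list medians, dashed lines 2-fold, and open triangles at the edges genes with 0 reads in 1 of the genotypes compared. The shade-induced PIF targets have medians of -1.13 and -1.18, and photoreceptor genes lie within the dashed lines.

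Several of the 9 genes are under the circadian clock, and clock genes also differed. The 13 clock genes summed to 824 CPM in atprmt3 and 825 CPM in rps2a2b, against 1089 and 1091 CPM in Col. LNK2, a coactivator in the clock, was lower in both mutants at -1.46 ± 0.20 and -1.67 ± 0.22. The clock list had a median of -0.51 in atprmt3 and -0.52 in rps2a2b, with 2 genes lower and 0 higher in atprmt3 (LNK2 and LHY) and 1 lower and 1 higher in rps2a2b (LNK2 and LHY). Of all genes tested, 6.33% were lower and 8.97% higher in atprmt3, and 6.29% lower and 9.99% higher in rps2a2b. LHY, named after its values were seen, had 0 reads in atprmt3 and 14 in rps2a2b, against 7 and 4 in Col, and its call in rps2a2b is lost without Col replicate 2. The time of harvest is not given in the labels, and its part in the PIF4, PIF5 and HFR1 values was not tested. Seed and embryo markers, 7 genes, summed to 675 CPM in atprmt3 and 1413 CPM in rps2a2b, against 41.5 and 45.3 CPM in Col, with SESA1 at 0 in Col. Leaf mesophyll markers, 7 genes, summed to 28790 and 22527 CPM, against 35017 and 34834 CPM, and the 8 root markers to 137 and 169.6 CPM, against 150.9 and 149.2 CPM. Genes within both lists went both ways. Of the leaf markers, 3 lay above Col and 4 below in atprmt3, and 2 above and 5 below in rps2a2b. Of the root markers, 3 lay above and 5 below in atprmt3, and 4 above and 4 below in rps2a2b. In rps2a2b the root gene PRP3 was at 94.5 CPM, against 40.7 in Col, and SCR at 34.0, against 57.3 in Col. The part of these marker differences in the results above was not tested. In bulk seedlings fewer cells of a type and less RNA per cell cannot be told apart.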

How the data were processed

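Trizol RNA of the seedlings went into dUTP-marked, strand-specific mRNA libraries, per the labels. Per the submitters' processing notes, TopHat2, HTSeq, edgeR and the TAIR10 build were used, with no versions named. The authors deposited raw counts of reads per gene. Read length and strand setting are not given in the sources used here.

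In R 4.3.3, edgeR 4.0.16 filtered genes (filterByExpr, minimum count 10, minimum total 15), scaled by TMM and estimated log2 fold changes with prior count 0.125. Col was counted as 1 sample; a call is a difference of at least 2-fold. Read-sampling errors were widened by a variance factor of 6.12 in each mutant and by a larger factor derived from it in the summed Col reads. The 6.12 is the chi-square per gene between the mutant libraries over 4263 genes with 10 to 99 summed counts. It was chosen after seeing the data, and real differences between the mutants inflate it. Code was tested on simulated data. Motifs and positions come from TAIR10.1. Alternatives were DESeq2 1.42.0, edgeR quasi-likelihood, a likelihood ratio test with an assumed biological coefficient of variation (BCV) of 0.2, a 1.5-fold line, other scalings, no filter, leaving out a Col library and a length and GC trend. Members and lists were chosen with earlier results of these data known. Named pathway genes had passed 2-fold in a mutant at 5 CPM or more, at most 4 per list, plus PHYB, COP1, PIF7 and PAR1; others, chosen after their values were seen, are marked as such.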

Additional observations from a re-analysis of the deposited data

How the results depend on the processing

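Of the 9 genes, the count past 2-fold in rps2a2b over Col was 2, and it was 6 at 1.5-fold (32.2% of genes tested), 7 by edgeR quasi-likelihood (52.5%), 4 by DESeq2 (17.2%) and 1 in the likelihood ratio test at an assumed BCV (11.6%). For rps2a2b over atprmt3 the count was 1, and it was 2 at 1.5-fold (21.3%) and 2 by quasi-likelihood (25.4%); it was 0 by DESeq2 (3.12%, with 2 genes at an unadjusted p under 0.05) and 0 with the assumed BCV (3.09%, with 1 such gene). These tests rest on a spread taken from the Col libraries alone or assumed, so they compare libraries. In atprmt3 over Col the count of 3 became 2 with upper-quartile factors, with the length and GC trend removed and with the assumed BCV (10.3%). No member called at 2-fold changed sign; PIF3, HYH and ATHB2 in atprmt3 and HY5 in rps2a2b, all near 0, did so under some settings. Leaving out either Col library kept the counts at 3, 2 and 1. Low counts limit HYH and PIL1. No paired analysis was possible because no mutant library belongs to a particular Col library.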
